A study of Aconitum carmichaelii with 4 samples.

Results

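Root-dominant unigenes of *Aconitum carmichaelii* are assembled transcripts that were found almost entirely in the root library. A unigene was counted as root-dominant when it was longer than 500 bases, had an estimated count of at least 100 root fragments, and had in root at least 95% of its TPM summed over root, flower, bud and leaf. TPM is a level corrected for transcript length and scaled to the same total in every library. By this rule 85 of the 128183 unigenes were root-dominant, or 85 of the 5758 that passed the length and root count minimums, a share of 1.48%. The 85 unigenes belonged to 73 Trinity genes, the groups of alternative transcripts that the Trinity assembler makes. All 4 libraries entered the rule, so membership and the size of the root excess are descriptions and were not tested.

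The study sequenced poly(A) RNA of root, flower, bud and leaf of 3-year-old *A. carmichaelii* plants grown outdoors and harvested in one month, with 1 library per tissue and no treatment or genotype contrast; how many plants went into a library is not stated. The deposited tables hold 4811266 estimated fragments for root, 7057551 for flower, 6614173 for bud and 5400853 for leaf. With no replicate library the spread between plants is unknown, no test between tissues was possible, and every interval given here is an exact 95% interval that covers counting error only. Where a library had 0 fragments of a unigene, the true number was taken to be up to 3.

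*Aconitum* roots are the drug part of the plant and store diterpene alkaloids of the aconitine type, whose carbon skeleton comes from the diterpene pathway by way of copalyl diphosphate and kaurene synthases. Later steps of alkaloid pathways commonly use cytochromes P450, 2-oxoglutarate-dependent dioxygenases and O-methyltransferases. Many plant roots also make small proteins of the Bet v I family, a fold shared by pathogenesis-related proteins, major latex proteins (MLPs) and, in some benzylisoquinoline alkaloid plants, norcoclaurine synthase.

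The root-dominant unigenes carried a large part of the root library and almost none of the others. They held 345885 root fragments, 7.19% of the library (7.17 to 7.21%), against 2934 fragments in flower (0.0416%, 0.0401 to 0.0431%), 3381 in bud (0.0511%, 0.0494 to 0.0529%) and 2398 in leaf (0.0444%, 0.0426 to 0.0462%). Their summed level was 83993 TPM in root, against 509 TPM in flower, 615 TPM in bud and 556 TPM in leaf. The median member had 91.2 TPM in root, with a range of 8.31 to 16392 TPM, against a median of 0.44 TPM in flower, 0.40 TPM in bud and 0.45 TPM in leaf. The rule itself keeps the aerial TPM of every member low, so the small totals in the 3 aerial libraries follow from the selection. In bulk tissue, fewer cells of a type and less RNA per cell cannot be told apart.

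**Figure D1:**
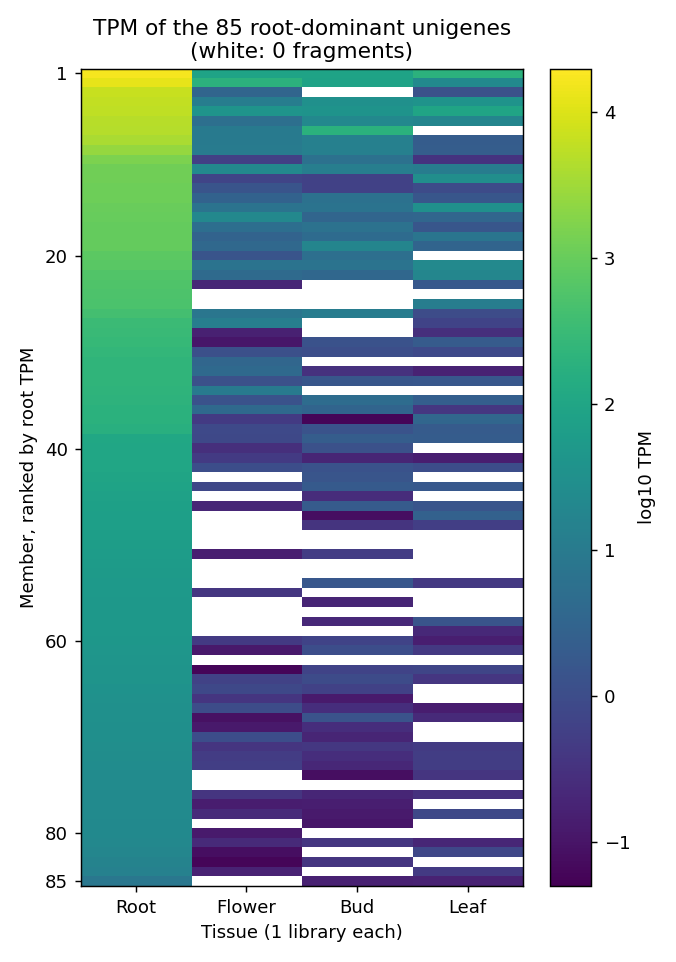
Each row is 1 of the 85 root-dominant unigenes, ranked by root TPM, and each column is 1 library; colour gives log10 TPM and white marks 0 fragments. The root column runs from 8.31 to 16392 TPM, while the highest level of any member was 194 TPM in flower, 192 TPM in bud and 198 TPM in leaf.

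Root dominance was the far end of a broad distribution. Over the 5758 unigenes that passed both minimums the median root share was 30.0%, and 887 (15.4%) had at least 50% of their TPM in root. The share reached 80 to 95% in 128 unigenes and 90 to 95% in 41. Among the members 18 lay between 95 and 96%, 15 between 96 and 97%, 11 between 97 and 98%, 17 between 98 and 99%, and 24 at 99% or more. For 57 of the 85 the lower exact limit of the share was also at least 95%.

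**Figure D2:**
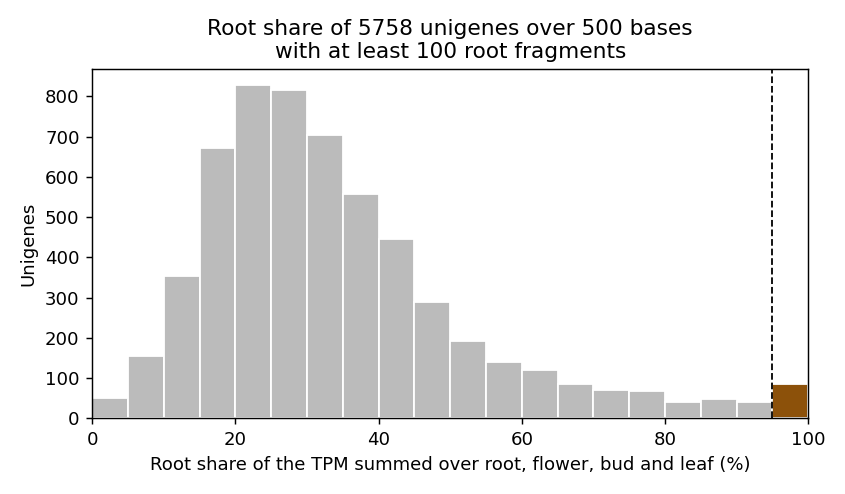
The bars count the 5758 unigenes over 500 bases with at least 100 root fragments in steps of 5 points of root share (percent of the TPM summed over the 4 tissues), and the dashed line is the 95% threshold. The last step, in brown, holds the 85 root-dominant unigenes, more than the 41 of the step before it.

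The unigenes nearest the threshold had 210 to 435 root fragments. Just inside it, TR47232|c0_g1_i5 had a share of 95.04% with 435 root fragments, against 2 in flower, 28 in bud and 3 in leaf. TR42586|c0_g1_i1 followed at 95.20% (240 root fragments, against 4, 2 and 8 in flower, bud and leaf) and TR45145|c0_g1_i1 at 95.23% (210, against 3, 7 and 4). Just outside it, TR39080|c0_g1_i1 had 94.97% with 280 root fragments, against 16 in flower, 8 in bud and 0 in leaf. TR34872|c0_g1_i1 had 94.82% (260 root fragments, against 6, 13 and 2 in flower, bud and leaf), and TR33272|c0_g1_i2 had 94.81% (240, against 8, 8 and 3). All 3 unigenes outside had more flower fragments than the 3 inside, and the bud and leaf counts overlapped. These counts entered the share by which the unigenes were picked, so the difference is no separate result.

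The same rule with another tissue in the place of root gave 101 flower-dominant unigenes of 10393 (0.972%), 197 bud-dominant of 10302 (1.91%) and 68 leaf-dominant of 7228 (0.941%). The share of its own library that each set held was 7.19% in root, against 2.17% in flower (2.16 to 2.18%), 7.80% in bud (7.78 to 7.82%) and 1.57% in leaf (1.56 to 1.58%). The root set thus held close to as large a share of fragments as the bud set with fewer than 50% as many unigenes. Its most abundant unigene, at 16392 TPM, was also above the most abundant flower-dominant (5099 TPM), bud-dominant (5738 TPM) and leaf-dominant (4870 TPM) unigene.

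Members were shorter and more abundant than the unigenes they were drawn from. Their median length was 954 bases (504 to 2356), against 1592 bases over the 5758 unigenes that passed both minimums, and their median root level was 91.2 TPM, against 28.5 TPM. Of the 69 such unigenes with more than 1000 TPM in root, 16 were root-dominant, and so were 6 of the 10 with the highest root TPM. Without the minimums, 3 of the 10 unigenes with the highest root TPM were members. Root TPM and counts entered the rule, so the difference in level describes the selected set and is no separate result. The sets of the other tissues were also shorter than the unigenes they were drawn from, with a median length of 1026 bases, against 1536 bases, in flower, 1185 bases, against 1576 bases, in bud and 1232 bases, against 1587 bases, in leaf. Among the unigenes of 500 bases or less that the length minimum removed, 415 had at least 100 root fragments and 26 of them (6.27%) had a root share of at least 95%; 17 of the 26 came from the same assembly clusters as members.

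Most of the root fragments came from a few transcripts. The 5 members with the most root fragments held 54.1% of all member fragments and the first 10 held 74.2%, whereas 52 of the 85 had fewer than 1000 fragments each.

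The most abundant was TR33060|c1_g1_i1, a transcript of 635 bases with 47673 fragments in root, against 422 in flower, 401 in bud and 555 in leaf. This is 16392 TPM in root (exact interval 16245 to 16540 TPM), against 87.2, 90.2 and 198 TPM in flower, bud and leaf. Root stood 82.6 times above leaf, the next tissue (76.0 to 90). Its partner TR33060|c1_g1_i2, of the same Trinity gene, had 5905 TPM in root, against 39.5 in flower, 38.6 in bud and 94.5 in leaf, and was 62.5 times above leaf (55.9 to 70.1). The first of the pair also had the most leaf fragments of any member, and the readable annotation gave neither a name. Unigenes of one Trinity gene share sequence. Abundance was estimated with RSEM, but the deposited counts are whole numbers. How fragments that fit several unigenes were divided before deposit is not given, so their levels are uncertain relative to each other. Whether fragments shared with other Trinity genes also affect the sum was not checked.

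The second most abundant, TR32793|c0_g1_i1, was described as a Bet v I allergen family protein. It had 27666 fragments in root, against 738 in flower, 297 in bud and 51 in leaf, corresponding to 12120.1 TPM in root, against 194, 85.0 and 23.2 TPM in flower, bud and leaf, and root was 62.5 times above flower (58.1 to 67.3). No other member had as many flower fragments.

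TR34840|c4_g4_i1, without a readable description, was the cleanest of the abundant members. It had 17418 fragments in root, against 14 in flower, 0 in bud and 3 in leaf, which is 6894 TPM in root, against 3.33, 0 and 1.23 TPM. Root was 2072 times above flower (1235 to 3791).

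The Trinity gene TR39285|c1_g1 gave a pair of abundant members of 1352 and 1376 bases, also without a readable description. TR39285|c1_g1_i2 had 44573 fragments in root, against 144 in flower, 371 in bud and 264 in leaf, and TR39285|c1_g1_i3 had 36781 in root, against 69, 242 and 127. In TPM they reached 6028 and 4875 in root, 162 times above leaf for the first (143 to 183) and 232 times above bud for the second (204 to 264). Together their cluster held 1.69% of the root library.

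TR28317|c0_g1_i1 had the most bud fragments of any member, with 10789 in root, against 37 in flower, 664 in bud and 0 in leaf. Levels were 4766 TPM in root, against 9.81, 192 and 0 TPM in flower, bud and leaf. Root exceeded bud 24.9 times (23.0 to 26.9), near the low end of the members, while leaf was empty.

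The cluster TR41387 held 4 members. TR41387|c2_g5_i1 had 30267 fragments in root, against 123 in flower, 162 in bud and 16 in leaf (3876 TPM in root, against 9.49, 13.6 and 2.14 TPM), and TR41387|c1_g1_i1 had 5976 in root, against 41, 49 and 5 (2597 TPM, against 10.7, 13.9 and 2.25 TPM). A further 3 members completed the 12 with the highest root TPM. TR26911|c0_g1_i1 had 5114 root fragments, against 3 in flower, 30 in bud and 1 in leaf (1606 TPM in root, against 0.57, 6.16 and 0.33 TPM). TR45937|c4_g1_i2 had 11522 root fragments, against 11 in flower, 9 in bud and 268 in leaf (1200 TPM in root, against 0.69, 0.61 and 29.2 TPM). The third was the MLP unigene TR35194|c3_g4_i1, described with its family further on.

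In all, 42 of the 85 members had more than 100 TPM in root, 30 of them below these 12, and in several the aerial residual was highest in one tissue. The following were chosen for that pattern after their values were seen, and the readable annotation named none of them. TR36119|c1_g1_i1 had 7524 fragments in root, against 259 in flower, 38 in bud and 26 in leaf (1001 TPM in root, against 20.8, 3.31 and 3.61 TPM). TR31267|c0_g1_i2 had 708 in root, against 18, 0 and 0, and TR33435|c0_g1_i1 had 1436, against 41, 3 and 1. In these the residual was highest in flower. TR32763|c0_g1_i1 had 5475 in root, against 37, 154 and 18 (938 TPM, against 3.82, 17.3 and 3.22 TPM), and TR32605|c0_g1_i1 had 2349, against 7, 26 and 0, with the residual highest in bud. TR1149|c0_g1_i1 had 1517 in root, against 0, 0 and 33 (530 TPM, against 0, 0 and 11.97 TPM), so its residual was in leaf, and that of TR31035|c1_g1_i2 was highest in leaf (744 TPM in root, against 6.97, 6.86 and 21.8 TPM).

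The 9 members with at least 10000 root fragments did not share one residual pattern in the aerial tissues. For each 1000 root fragments, TR34840|c4_g4_i1 had 0.80 in flower, 0 in bud and 0.17 in leaf, and TR28317|c0_g1_i1 had 3.43, 61.5 and 0. TR45937|c4_g1_i2 had 0.95 in flower, 0.78 in bud and 23.3 in leaf, and TR32793|c0_g1_i1 had 26.7, 10.7 and 1.84. The residual fragments thus peaked in a different aerial tissue for different members, and for TR34840|c4_g4_i1 they were at or near 0 in every aerial tissue. These fragment numbers are not corrected for the size of the aerial libraries.

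**Figure D3:**
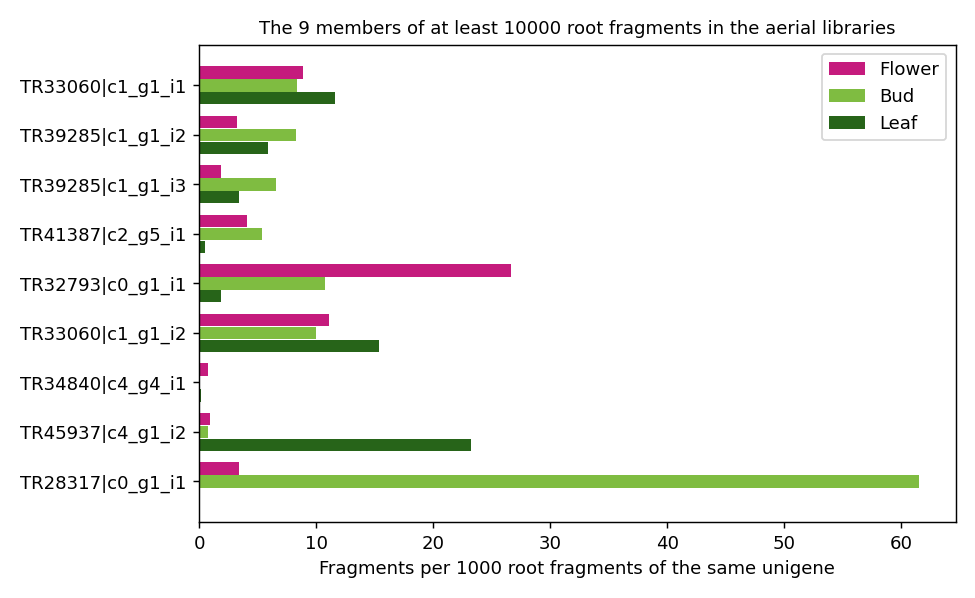
Bars give the flower, bud and leaf fragments of each of the 9 most sequenced members per 1000 root fragments of the same unigene, 1 library per tissue. Bud reaches 61.5 for TR28317|c0_g1_i1, flower 26.7 for TR32793|c0_g1_i1 and leaf 23.3 for TR45937|c4_g1_i2, while TR34840|c4_g4_i1 stays under 1 in all 3.

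Over all members the next tissue after root was bud in 30, leaf in 27 and flower in 20, and 8 had no aerial fragment. The next tissue stood above both other aerial tissues beyond counting error in only 28 members (flower 7, bud 10 and leaf 11), and in 57 the aerial order was not resolved at this depth. The ratio of root to the next tissue had a median of 61.9 over the 85 members, with the 8 empty ones set to their bound against 3 fragments. The lowest was 23.3, for TR36531|c0_g2_i1 (10.4 to 64.5), from 146 root fragments, against 1 in flower, 0 in bud and 6 in leaf. In 16 members the next tissue had only 1 to 3 fragments. One of these, TR33272|c1_g1_i1, had 1130 root fragments, against 1 in flower, 0 in bud and 1 in leaf, and its ratio to leaf of 1085 had an interval of 194 to 42889.

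No fragment was seen in flower for 20 members, in bud for 20 and in leaf for 26. Over the 5758 unigenes that passed both minimums, 0.417% had none in flower, 0.538% none in bud and 1.04% none in leaf, and only 8 (0.139%) had none in all 3. The 8 were all members, as the rule requires. TR32037|c0_g1_i1 was by far the most abundant of them, with 1712 root fragments and 545 TPM. Against the bound of 3 fragments its root estimate was at least 549-fold higher than any aerial tissue. This bound and those that follow use a set value of 3 fragments, not an exact limit, and leave out the counting error of root. TR42594|c2_g2_i1 had 424 root fragments (65.7 TPM, at least 135-fold higher) and TR45327|c2_g2_i1 had 248 (25.7 TPM, at least 79.0-fold higher). TR6771|c0_g1_i1 had 239 root fragments, TR29126|c0_g1_i2 had 189, TR42594|c1_g1_i1 had 179, TR46449|c1_g4_i1 had 129 and TR44006|c1_g1_i1 had 116. None of the 8 had a readable description.

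Of the 5 longest members, 4 were below the median root level of the members, and none was annotated in the readable tables. TR47232|c0_g1_i5 (2356 bases) had 31.8 TPM in root, against 0.09, 1.34 and 0.23 TPM in flower, bud and leaf. TR42035|c0_g1_i1 (2142 bases) had 27.1 TPM in root, against 0.54, 0.21 and 0.51 TPM, and TR41180|c1_g1_i1 (2141 bases) had 28.0 TPM, against 0.49, 0.27 and 0.51 TPM. TR36274|c0_g1_i2 (2112 bases) had the lowest root level of all members, 8.31 TPM from 101 fragments, against 0, 0.16 and 0.17 TPM. TR43999|c1_g1_i1 (1906 bases) was above that median, at 185 TPM in root, against 0.44 in flower, 0.06 in bud and 3.47 in leaf.

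Descriptions from protein matches were readable for 8 of the 85 members, because the study's annotation tables were only partly readable here, so the roles of the other 77 are not described. The 8 fell into 5 groups, namely Bet v I and major latex proteins, O-methyltransferases, a dioxygenase, a late embryogenesis abundant protein and a cytochrome P450. All but the P450 were listed in orthogroups, groups of unigenes related by sequence that the study built with a second *Aconitum* species, which allowed them to be set beside their relatives.

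The Bet v I group (orthogroup OG0000181) had 6 readable unigenes, 2 of them members, and spanned nearly the whole range from root-dominant to evenly expressed. Bet v I and MLP proteins bind small hydrophobic molecules. Beside TR32793|c0_g1_i1 (12120.1 TPM in root), the member TR35194|c3_g4_i1, described as MLP 28, had 1246 TPM in root from 2711 fragments, against 21.2 in flower, 12.6 in bud and 11.4 in leaf, 58.7 times above flower (46.8 to 74.6). TR35194|c3_g16_i2 (MLP 34) had a root share of 98.8% and 1614 TPM in root, against 2.74, 1.71 and 15.5 TPM in flower, bud and leaf, and was not a member only because it is 414 bases long. TR35194|c3_g14_i1 (MLP 34, 292 bases) had a share of 93.0%. The pair from TR22796|c0_g1 was expressed throughout the plant: TR22796|c0_g1_i4 had 450 TPM in root, against 31.4, 168 and 140 TPM, and TR22796|c0_g1_i1 had 105 TPM in root, against 60.6, 69.6 and 49.7 TPM. Summed over the group the level was 16849 TPM in root, against 376 TPM in flower, 361 TPM in bud and 248 TPM in leaf.

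The O-methyltransferase group (OG0000044) had 8 readable unigenes, 3 of them members, all from the Trinity gene TR40251|c3_g2. O-methyltransferases move a methyl group onto a hydroxyl oxygen of small molecules. This Trinity gene had more members than any other, 4 of its 7 unigenes. TR40251|c3_g2_i2, described as orcinol O-methyltransferase, had 9663 fragments in root, against 40 in flower, 81 in bud and 13 in leaf (1140 TPM in root, against 2.84, 6.26 and 1.60 TPM). TR40251|c3_g2_i3, with the same description, had 8578 in root, against 95, 86 and 261 (1026 TPM, against 6.85, 6.74 and 32.7 TPM). TR40251|c3_g2_i5, described as isoflavone-7-O-methyltransferase 9, had 8068 in root, against 42, 58 and 60 (965 TPM, against 3.03, 4.55 and 7.51 TPM). The member TR40251|c3_g2_i9, with no readable description, had 592 TPM in root, against 4.31, 3.78 and 18.3 TPM. Root levels of the first 3 differed by little, while the next tissue was bud for one and leaf for the others.

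Of the other unigenes of TR40251|c3_g2, the 292-base TR40251|c3_g2_i12 had a root share of 95.2%, and TR40251|c3_g2_i10 (88.5%) and TR40251|c3_g2_i8 (87.6%) had higher bud levels, of 47.6 and 43.2 TPM. Summed over all 7 unigenes the gene had a root share of 95.3%. A relative outside this gene ran the other way: TR32830|c0_g3_i1, also described as orcinol O-methyltransferase, had 16 fragments in root, against 895 in flower, 157 in bud and 3 in leaf, or 2.50 TPM in root, against 84.3, 16.1 and 0.49 TPM. The group thus held both root-dominant transcripts and one found mainly in flower.

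TR28252|c1_g1_i2 carried the description "Desacetoxyvindoline 4-", which is cut short in the table. Desacetoxyvindoline 4-hydroxylase is a 2-oxoglutarate-dependent dioxygenase of vindoline synthesis in *Catharanthus roseus*, and 2-oxoglutarate-dependent dioxygenases oxidize many plant metabolites. The unigene had 477 fragments in root, against 0 in flower, 12 in bud and 0 in leaf (91.2 TPM in root, against 0, 1.5 and 0 TPM), and root was 60.7 times above bud (34.4 to 118). TR28252|c1_g1_i1, of the same Trinity gene, was also a member, with 674 in root, against 3, 12 and 0 (105 TPM, against 0.28, 1.22 and 0 TPM). The relatives in its orthogroup OG0000118, described as homologs of 1-aminocyclopropane-1-carboxylate oxidase, were instead highest in flower. TR33448|c0_g1_i1 had 0.74 TPM in root, against 12.6 in flower, 4.02 in bud and 0.51 in leaf, and TR33448|c0_g1_i3 had 0.66 TPM in root, against 18.5, 7.54 and 0.28 TPM.

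TR33980|c0_g1_i5 was described as a late embryogenesis-abundant (LEA) protein, a class known to accumulate in drying seeds and water-stressed tissues. It had 251 fragments in root, against 1 in flower, 3 in bud and 0 in leaf (62.4 TPM in root, against 0.15, 0.49 and 0 TPM). All 5 unigenes of its Trinity gene, which formed the readable part of orthogroup OG0000227, had root shares between 83.8 and 99.2%. The summed level was 415 TPM in root, against 5.17 TPM in flower, 11.6 TPM in bud and 0.54 TPM in leaf. The root excess was therefore shared by the alternative transcripts of this gene.

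The cytochrome P450 among the members was TR34564|c0_g1_i1 (cytochrome P450 82A3-like), with 404 fragments in root, against 1 in flower, 10 in bud and 7 in leaf. This gave 40.6 TPM in root, against 0.06, 0.66 and 0.74 TPM in flower, bud and leaf, 55.2 times above leaf (26.5 to 138). Enzymes of the CYP82 family oxidize alkaloids and other specialized metabolites in several plants.

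It was the only member among the 73 unigenes that the study listed for terpenoid precursor and diterpene synthesis (17 of the mevalonate pathway, 21 of the plastidial MEP pathway and 14 of later steps) and as root-expressed P450s (21). Of the 73, 30 passed the length and root count minimums, so 1 of 30 stands beside 1.48% of all such unigenes. The P450 list was chosen by the study for its expression in these libraries and is not independent evidence of a root excess. None of the 17 mevalonate pathway unigenes had a root share above 46.0% and none of the 21 MEP unigenes above 77.6%. The precursor pathways that supply all isoprenoids were thus not among the root-dominant transcripts. Below the threshold, some of their unigenes were still highest in root, such as HMGR3 (47.6 TPM, against 28.4 TPM in bud, the next tissue). Others were not, such as HMGS3 (0.90 TPM in root, against 41.1 TPM in bud).

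Of the 14 unigenes listed for the steps after isopentenyl diphosphate, 3 came near the threshold, while 11 had root shares under 50% and the median over the 14 was 7.07%. KS1 (TR44693|c0_g3_i1), a kaurene synthase, had 135 fragments in root, against 4 in flower, 7 in bud and 1 in leaf, a root share of 94.4%. KS2 (TR44693|c0_g1_i2) had 213 in root, against 3, 20 and 0, a share of 93.5%. CDPS4 (TR36243|c0_g1_i1), a copalyl diphosphate synthase, had 112 in root, against 14, 6 and 5, a share of 86.4%. Their root levels were 22.7 TPM (KS1), 24.9 TPM (KS2) and 8.24 TPM (CDPS4), and every aerial level of these 3 was at or below 1.53 TPM. The other listed synthases of this branch were lowest or nearly lowest in root. KS3 (TR48214|c4_g1_i1) had 6 fragments in root, against 115 in flower, 527 in bud and 145 in leaf, or 0.49 TPM in root, against 5.61, 27.96 and 12.3 TPM. CDPS2 (TR48303|c0_g1_i1) had 0 in root, against 5, 26 and 84, CDPS1 (TR48303|c1_g1_i4) had 0, against 3, 1 and 15, and CDPS3 (TR48303|c1_g1_i3) had 11, against 14, 63 and 98. The 7 geranylgeranyl diphosphate synthase unigenes (GGPPS), which make the precursor of all diterpenes, had root shares of 3.34 to 33.9%. Among them GGPPS1 was highest in root (77.3 TPM, against 55.0 TPM in bud, the next tissue), and all others were higher in another tissue. Root-high and shoot-high forms thus stood beside each other within both synthase classes.

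A second P450 82A3-like unigene, TR34774|c0_g1_i1, had nearly the same root level as the member, 40.9 TPM, against 0.52 in flower, 1.26 in bud and 1.12 in leaf (share 93.4%). The P450 71A1-like TR45117|c1_g1_i1 had a share of 90.5%, TR46599|c0_g3_i1 of 87.6%, TR45571|c1_g2_i1 of 83.8% and TR47900|c2_g2_i11 of 82.2%, the last with 65 root fragments. TR4759|c0_g1_i1 had all of its fragments in root, but these were only 5. With TMM or DESeq2 scaling, which both place root higher, KS1, KS2 and TR34774|c0_g1_i1 also exceeded 95% and the listed unigenes that were root-dominant numbered 4 instead of 1.

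**Figure D4:**
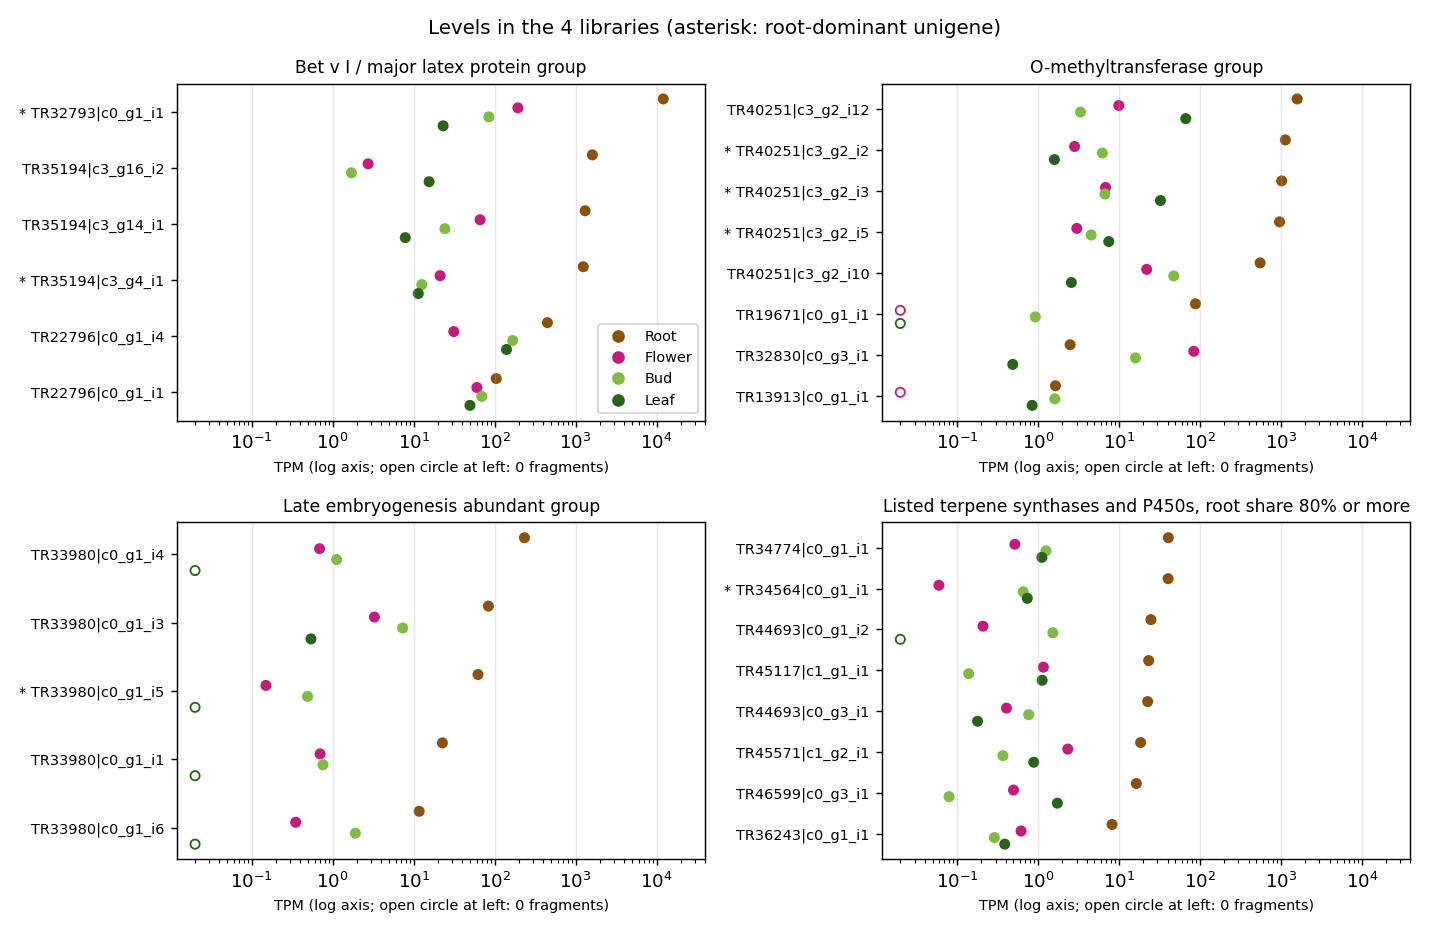
Points give the TPM of each unigene in root, flower, bud and leaf on a log axis, 1 library each, for 3 orthogroups and for the listed terpene synthases and P450s with at least 100 root fragments and a root share of at least 80%; open circles at the left edge mark 0 fragments and asterisks the root-dominant unigenes. Root is to the right of all other tissues except for the flower-high TR32830|c0_g3_i1, and the gap is narrow in the TR22796 pair and in TR13913|c0_g1_i1, where root has 1.65 TPM and bud 1.62 TPM.

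Of the 73 Trinity genes, 46 consisted of a single unigene and 27 of several, and 10 had 2 or more members. When the TPM of all unigenes of a Trinity gene was summed, 58 of the 73 still had a root share of at least 95% and 15 did not, with 31.5% the lowest (TR39805|c0_g1). For 21 Trinity genes the unigenes other than the members had at least 20 fragments over the 4 libraries. The root share of these other unigenes had a median of 75.1%; it was at least 80% in 10 of the 21 and under 50% in 6. In some of these genes the other unigenes were found in all 4 tissues, as in TR39327|c1_g1 (root share 48.8%). In others they were low in root, as in TR39070|c1_g2 (2.40%).

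In 12 of the Trinity genes with several unigenes, all 4 libraries had at least 20 fragments, so that the leading transcript could be compared. In 6 of them a member was the leading form in root, and another unigene led in each of flower, bud and leaf. These genes, and the examples that follow, were chosen after their values were seen. The rule keeps a member low in flower, bud and leaf. Another unigene leading there therefore follows in part from the selection, and a switch of form was not tested. TR39070|c1_g2_i4 made up 98.2% of the TPM of its gene in root, against 3.66% in flower, 4.85% in bud and 1.60% in leaf. It had 313 fragments in root, against 5, 7 and 1, whereas its only partner TR39070|c1_g2_i1 had 6 in root, against 137, 143 and 64. Root and the aerial libraries thus differed almost completely in which of these assembled transcripts, of 1262 and 1308 bases, they held. The gene as a whole had a root share of 56.9%.

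In TR45937|c4_g1 the form TR45937|c4_g1_i4 was at 9.92% of the gene in root, against 99.3% in flower, 98.9% in bud and 80.7% in leaf. It had 2595 fragments in root, against 2020, 824 and 1208. The members TR45937|c4_g1_i2 and TR45937|c4_g1_i6 (1738 in root, against 1, 0 and 5) together made up 65.0% in root, against 0.70, 1.07 and 18.8%, and the 374-base TR45937|c4_g1_i3 another 25.04% in root. The gene thus had a form present in all 4 tissues beside forms with 97.5% or more of their TPM in root, with some of TR45937|c4_g1_i2 in leaf.

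TR41387|c2_g1 had the members TR41387|c2_g1_i4 (2451 fragments in root, against 5, 2 and 2 in flower, bud and leaf) and TR41387|c2_g1_i3 (2558, against 23, 26 and 4), which together held 81.4% of the gene in root, against 3.98, 4.52 and 2.86%. The 274-base TR41387|c2_g1_i5 held 18.6% in root, against 96.0, 95.5 and 97.2%. TR39805|c0_g1_i2 held 77.1% of its gene in root, against 1.82, 11.3 and 0.91%, from 311 root fragments, against 4, 10 and 6. TR39327|c1_g1_i5 held 45.8% in root, against 4.59, 4.44 and 0.80%, from 1314 root fragments, against 41, 52 and 3. In the sixth gene, TR44006|c1_g1_i1 led in root by less than its counting error, with 55.5 TPM (45.9 to 66.6), against 54.3 TPM for TR44006|c1_g1_i7, and had no fragment elsewhere.

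**Figure D5:**
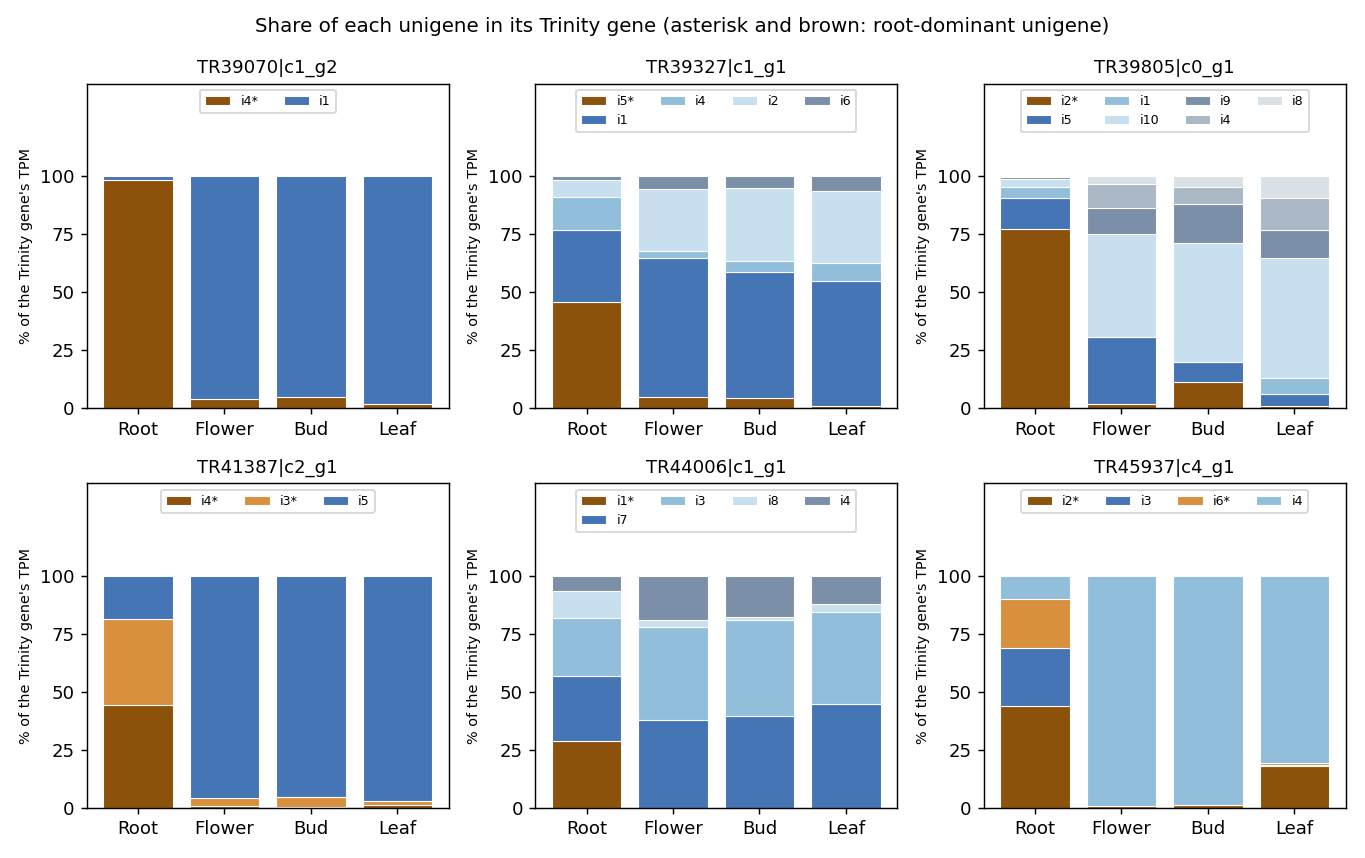
Stacked bars give the percent of its Trinity gene's TPM that each unigene held in root, flower, bud and leaf, for the 6 genes in which a root-dominant unigene (brown, asterisk) led in root and another led in each aerial tissue. The brown part is 98.2% in root and at most 4.85% elsewhere for TR39070|c1_g2, and 81.4% in root and at most 4.52% elsewhere for TR41387|c2_g1.

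Among the other genes compared, TR42051|c2_g2 was led by TR42051|c2_g2_i9 in root and TR42051|c2_g2_i8 in each aerial tissue, neither of them a member. In TR40251|c3_g2 and TR46447|c1_g3 the leading transcript also changed between tissues. In TR33060|c1_g1, TR39285|c1_g1 and TR41387|c1_g1 the same transcript led in all 4 tissues, with smaller differences in the split. TR33060|c1_g1_i1 made up 73.5% of its gene in root, against 68.8% in flower, 70.0% in bud and 67.7% in leaf, although the summed level of the gene in root was 76.1 times that in leaf, the next tissue. TR39285|c1_g1_i2 made up 55.3% of its gene in root, against 68.0, 61.0 and 68.0%. In the TR33060|c1_g1 and TR39285|c1_g1 pairs all transcripts were root-dominant.

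Some members shared an assembly cluster, the set of Trinity genes with the same number before the bar in their names. Whether the genes of a cluster are related in sequence was not checked. The 85 members came from 68 clusters, and 11 clusters had 2 or more. These held 32.9% of the members, against 36.9% of the 5758 unigenes over the minimums that shared a cluster with another such unigene, so the share for members was close to that background. Cluster TR41387 held 1.80% of the root library. Of its 11 unigenes with at least 20 fragments, 7 had a root share of at least 95%, of which 4 were members and 3 were too short. The most abundant of the cluster, TR41387|c1_g1_i2, missed the threshold at 94.5%, with 38151 fragments in root, against 1525 in flower, 1191 in bud and 508 in leaf. Another unigene of the same cluster was found mainly in leaf: TR41387|c2_g7_i2 had 10 fragments in root, against 58 in flower, 128 in bud and 1143 in leaf.

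All 3 unigenes of cluster TR46449 with at least 20 fragments were members. TR46449|c1_g2_i1 had 635 fragments in root, against 0, 1 and 23 in flower, bud and leaf, TR46449|c1_g1_i1 had 221, against 0, 0 and 1, and TR46449|c1_g4_i1 had 129, against none. In TR42594, 3 members and 3 unigenes of 359 to 434 bases had no more than 1 aerial fragment each, while TR42594|c2_g1_i1 was spread over the plant, with 97 in root, against 46, 108 and 16. TR41094|c2_g1 gave a pair whose residual was mainly in flower: TR41094|c2_g1_i1 had 989 fragments in root, against 65 in flower, 0 in bud and 2 in leaf, and TR41094|c2_g1_i3 had 722, against 51, 0 and 0.

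A check of the root label was tried with markers from the readable annotation, which covered few unigenes. The diterpene markers KS1, KS2 and CDPS4, which are the root-high ones of their classes and so are no independent check, summed to 55.8 TPM in root, against 1.24, 2.59 and 0.57 TPM in flower, bud and leaf. Those of photosystems (2 unigenes) summed to 3.81 TPM in root, against 2.17, 1.10 and 15.7 TPM, with the cytochrome b559 subunit at 0 fragments in root, against 6, 2 and 26. The 8 floral-class MADS unigenes summed to 46.5 TPM in root, against 54.5, 50.7 and 267 TPM, and the 3 of TR40910|c0_g1 were highest in root. The MADS sum was thus highest in leaf, not flower, and the photosystem sum was higher in root than in flower or bud. Neither set separated root from all 3 aerial tissues, so neither could check the root label. A further 4 unigenes were picked only by the words root, nodulin or intrinsic in their descriptions, which need not mark root proteins. Of these only a nodulin 3 unigene had 20 fragments, with 0 in root, against 12, 9 and 26. They did not separate root from the other tissues and could not check the root label.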

How the data were processed

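Poly(A) RNA of 4 tissues was sequenced with a strand-specific kit, 1 library per tissue. Per the paper's methods, the authors trimmed reads with Trimmomatic, assembled the reads of all tissues together with Trinity, reduced redundancy with CD-HIT-EST, aligned reads with Bowtie 2 and estimated abundance with RSEM. Other versions and whether counting used strand are not given in the sources used here. The deposited tables give, per unigene, estimated counts (expected counts, all whole numbers), TPM, FPKM and the percent of the Trinity gene's level (IsoPct, deposited by the authors). The authors' joint FPKM table held the same FPKM values as the library tables.

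Members, lists and named unigenes were chosen with earlier results of these data known. Membership used the deposited TPM and counts. Intervals were exact Poisson for levels, Clopper-Pearson for shares and conditional binomial for ratios of 2 libraries. The lower limit of a root share weighted aerial fragments by their mean TPM per fragment. Alternatives used FPKM, TMM factors (edgeR 4.0.16), DESeq2 1.42.0 size factors, other thresholds, and counts thinned to the root total in 1 seeded draw. No edgeR or DESeq2 test was run. The rule and intervals were run on simulated libraries with counting error only. The simulated root excess was larger than that of most members, so behaviour near the threshold was not tested. Named unigenes were the members described in readable annotation, the 12 with the highest root TPM, the 3 Trinity genes with the most members (ties by summed root TPM), the 3 on each side of the threshold, listed pathway and P450 unigenes with a root share of at least 80%, the member with the most fragments in each aerial tissue and the 5 longest; all others were chosen after their values were seen. No sequences are printed, and readable parts of the annotation tables were used for names only. Python 3.11.15, scipy 1.17.1 and R 4.3.3 were used.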

Additional observations from a re-analysis of the deposited data

How the results depend on the processing

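No paired analysis was possible because each tissue had 1 library, and for the same reason no replicate could be left out. The 85 root-dominant unigenes became 24 at a share of at least 99%, 169 without a count minimum and 40 at lengths over 1000 bases, and stayed within 1.5 times under the other 9 settings (57 to 126). TMM scaling moved root upwards relative to TPM by 0.44 (flower), 0.59 (bud) and 0.41 (leaf) on the log2 scale, and DESeq2 size factors by 0.46, 0.67 and 0.44; all 85 members were kept under both, as were 83 with FPKM. Their share of root fragments, 7.19%, was 8.14% with TMM, 8.24% with DESeq2, 14.8% at a share of at least 90%, 2.33% at 99% and 1.85% without the 10 members with the most root fragments. The number of listed pathway and P450 unigenes among them, 1, was 4 with TMM, 4 with DESeq2 and 5 at a share of at least 90%. The count of Trinity genes (73, or 59 by summed levels), the median ratio to the next tissue (61.9, range 39.8 to 86.4) and the count of members without aerial fragments (8, or 10 after thinning) stayed within 1.5 times or, for the ratio, within the counting interval of the member at the median; the lowest ratio, with a pseudocount of 1 TPM, was over 1.5 times below the main one. Depth limits the aerial values: 33 of the 85 had fewer than 10 fragments over flower, bud and leaf together.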

Other observations

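A further 84 unigenes over 500 bases had at least 95% of their TPM in root but 1 to 99 root fragments, with a median of 26 fragments, too few to place their share firmly.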
